A study of Mus musculus with 4 samples.

Results

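The genes of the collagen chains were described in mouse embryonic stem cell derivatives that had been sorted for Flk-1, the VEGF receptor encoded by Kdr, and split by a fluorescent reporter of Hoxb6. Members were all genes whose symbol is Col, a number, a and a second number, named through the RefSeq accession of their array probe. There were 43 of them among 20654 genes with a named probe, carried by 63 probes. A further chain of the gene table, Col12a1, had no probe named in this way and was not analysed here.

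The source of the total RNA was EB5, a line of mouse embryonic stem cells, carrying the Hoxb6-RFP reporter. Differentiation ran for 6 days on a feeder layer of OP9, stromal cells of mouse bone marrow origin. The RFP-positive fraction was Flk-1+Hoxb6-RFP+ and the RFP-negative fraction was Flk-1+Hoxb6-RFP-, so that both shared the cell line, the reporter, the feeder, the day and the Flk-1 sort, and no fraction was taken without Flk-1. There were 2 one-colour arrays of each fraction. The feeder is mouse too, so a probe cannot tell transcripts of feeder cells from those of the stem cell derivatives. The labels do not say whether the replicates came from separate cultures, and p-values then measure only the spread between these samples, which may be technical.

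Collagens are the main structural proteins of the extracellular matrix. Each molecule is a triple helix of chains built from repeats of glycine and 2 other residues, and the chains of a given type may be identical or come from several genes. Fibrillar collagens such as I, III and V form the fibrils of connective tissue. Collagen IV forms the sheet of basement membranes under endothelium and epithelium, collagen VI forms beaded filaments around cells, and FACIT collagens sit on the surface of fibrils. Mesenchymal and stromal cells are the best known source of fibrillar collagens, and early vessels lay down collagen IV.

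Upstream sequences are shown for 5 of the chains described below. They were taken from RefSeq (build GRCm38.p6), run 5′ to 3′ and, except for Col5a1, end next to the annotated start. Capitals mark the letters CCAAT or GGGCGG on either strand, and neither was found in the stretch of Col6a1. Both RFP-positive arrays lay below both RFP-negative arrays for Col6a1, Col6a2 and Col1a2. Their sequences lie at chr10:76726045-76726294 on the minus strand, chr10:76623631-76623880 on the minus strand and chr6:4505368-4505617 on the plus strand.
Col6a1: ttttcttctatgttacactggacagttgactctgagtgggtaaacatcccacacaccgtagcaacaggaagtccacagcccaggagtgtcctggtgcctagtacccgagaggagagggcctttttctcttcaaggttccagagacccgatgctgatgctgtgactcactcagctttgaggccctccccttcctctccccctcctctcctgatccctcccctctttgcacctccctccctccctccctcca
Col6a2: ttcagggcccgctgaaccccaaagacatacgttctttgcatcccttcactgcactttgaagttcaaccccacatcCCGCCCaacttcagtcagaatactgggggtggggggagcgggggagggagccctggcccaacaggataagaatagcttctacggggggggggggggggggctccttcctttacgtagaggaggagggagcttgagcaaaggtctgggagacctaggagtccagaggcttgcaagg
Col1a2: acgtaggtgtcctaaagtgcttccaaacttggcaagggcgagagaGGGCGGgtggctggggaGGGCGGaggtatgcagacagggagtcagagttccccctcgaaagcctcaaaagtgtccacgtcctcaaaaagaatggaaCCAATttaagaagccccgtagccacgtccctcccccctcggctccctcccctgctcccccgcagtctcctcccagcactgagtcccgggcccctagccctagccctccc
Both RFP-positive arrays lay above both RFP-negative arrays for Col8a2 and Col5a1. Their sequences lie at chr4:126286544-126286793 and chr2:27886175-27886380, both on the plus strand. The stretch shown for Col5a1 is 206 bases long and ends 45 bases before the start in the promoter table, since bases nearer to it lie in the gene's annotated span.
Col8a2: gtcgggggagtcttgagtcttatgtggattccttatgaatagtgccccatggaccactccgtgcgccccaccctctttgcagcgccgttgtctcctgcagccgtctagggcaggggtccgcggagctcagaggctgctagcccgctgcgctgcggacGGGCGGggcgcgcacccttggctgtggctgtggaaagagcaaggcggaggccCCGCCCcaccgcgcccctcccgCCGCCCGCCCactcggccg
Col5a1: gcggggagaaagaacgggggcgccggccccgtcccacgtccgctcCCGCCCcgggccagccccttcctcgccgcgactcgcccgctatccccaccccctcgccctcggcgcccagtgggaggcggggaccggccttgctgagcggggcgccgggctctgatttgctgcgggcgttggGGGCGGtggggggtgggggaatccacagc

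RefSeq promoter windows, from 250 bases before to 50 bases after the start, were on hand for 27 of the 33 chains tested below. The motif GGGCGG, counted on both strands with overlapping matches kept, was in 18 of these 27 windows (66.7%), against 35.9% of 27025 windows, 1 for each gene. CCAAT was in 9 of the 27 (33.3%), against 38.0% of all, and TATAAA was in 4 (14.8%), against 14.2%. The median share of G and C was 60.3% over the chains and 52.7% over all windows. These 27 chains had passed the filter on array signal, while the 27025 windows were not filtered in this way. Shares over windows of the genes tested were not counted, so these contrasts cannot be read as particular to collagen chains. Among windows of chains whose arrays did not overlap, GGGCGG was in 4 of 6 on the higher side and in 6 of 11 on the lower side. These matches describe the letters of the windows and were not tied to binding.

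All array values are processed signals on the log2 scale minus the log2 75th percentile of their array, so that 0 is the level of that percentile. Differences are RFP-positive minus RFP-negative means, and errors are limma standard errors (SE), from 2 arrays of each fraction. Between 55.2% and 59.3% of the 59305 spots per array that were not controls were well above background by the scanner's mark, and no spot was saturated. The number of arrays limits the precision. Kdr was at 4.41 and 4.36 on the RFP-positive arrays and at 4.18 and 4.33 on the RFP-negative arrays. No array had Hoxb6 well above background, so the reporter labels could not be checked on its probe. RFP-positive replicate 2 stood apart, with correlations across genes of 0.953 and 0.950 with the RFP-negative arrays and 0.964 with replicate 1 of its own fraction. The RFP-negative arrays correlated by 0.980 with each other. RFP-positive replicate 1 correlated by 0.982 and 0.974 with RFP-negative replicates 1 and 2, above its 0.964 within its own fraction. The arrays thus did not group by fraction. Genes are not independent replicates in these correlations.

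Of the 43 chains, 27 were well above background on all 4 arrays and 6 on no array. A gene was tested if its probe was well above background on both arrays of at least 1 fraction. This left 33 chains among 13433 genes. The 6 chains that no array showed well above background were Col24a1, Col4a3, Col6a4, Col6a6, Col19a1 and Col28a1. The other 4 not tested were Col11a1, on replicate 2 of each fraction only, Col22a1 and Col6a5, on RFP-positive replicate 2 only, and Col17a1, on RFP-negative replicate 2 only.

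The comparison asked which collagen chains differed between RFP-positive and RFP-negative cells. In limma's test, adjusted by Benjamini-Hochberg over 13433 genes, 0 chains passed an adjusted p of 0.05, against 0% of all genes tested, and adjusted p over the chains ran from 0.581 to 0.974. At an unadjusted p under 0.05 there were 10 of 33 chains, against 6.49% of all genes. Of these, 5 were higher in RFP-positive cells, where 2.77% of all genes were, and 5 were lower, where 3.72% were. Those on the higher side were Col8a2, Col9a1, Col27a1, Col14a1 and Col20a1. Those on the lower side were Col5a3, Col11a2, Col6a2, Col6a3 and Col1a1. Col5a3 and Col9a1 entered the test only through the fraction in which they are high, so their p-values give no support. In a fit limited to genes well above background on all 4 arrays, 8 of 27 chains had an unadjusted p under 0.05, beside 5.89% of 12422 genes.

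The chains spread to both sides. For 15 of 33 chains both RFP-positive arrays lay below both RFP-negative arrays, where 21.6% of all genes tested did, and for 7 both lay above, where 18.8% did. The arrays of the fractions thus did not overlap for 22 of 33 chains, beside 40.3% of all genes. Means differed at least 2-fold for 9 chains, beside 7.23% of all genes. Signals of every RFP-positive array were at least 2-fold below those of every RFP-negative array for 2 chains, Col11a2 and Col5a3, beside 0.893% of all genes. For Col5a3 this count uses RFP-positive signals that were not well above background, and at the dimmest signal well above background its arrays are 0.86 apart on the log2 scale, under 2-fold. Some chains were tested through 1 fraction alone, which favours separation. Over the 27 chains well above background on all 4 arrays the counts were 13 below and 6 above, beside 20.4% and 18.9% of 12422 such genes. The median difference was -0.23 over the 33 chains and -0.05 over all genes tested. The median size of the difference, whatever its sign, was 0.66 over the chains and 0.27 over all genes. Separation was narrow for some chains, with 5 of the 15 lower and 1 of the 7 higher less than 0.1 apart. The separations of Col3a1, Col4a2 and Col9a3 were lost when arrays were scaled to the median. Because these are bulk samples, fewer cells of a type and less RNA per cell cannot be told apart.

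**Figure D1:**
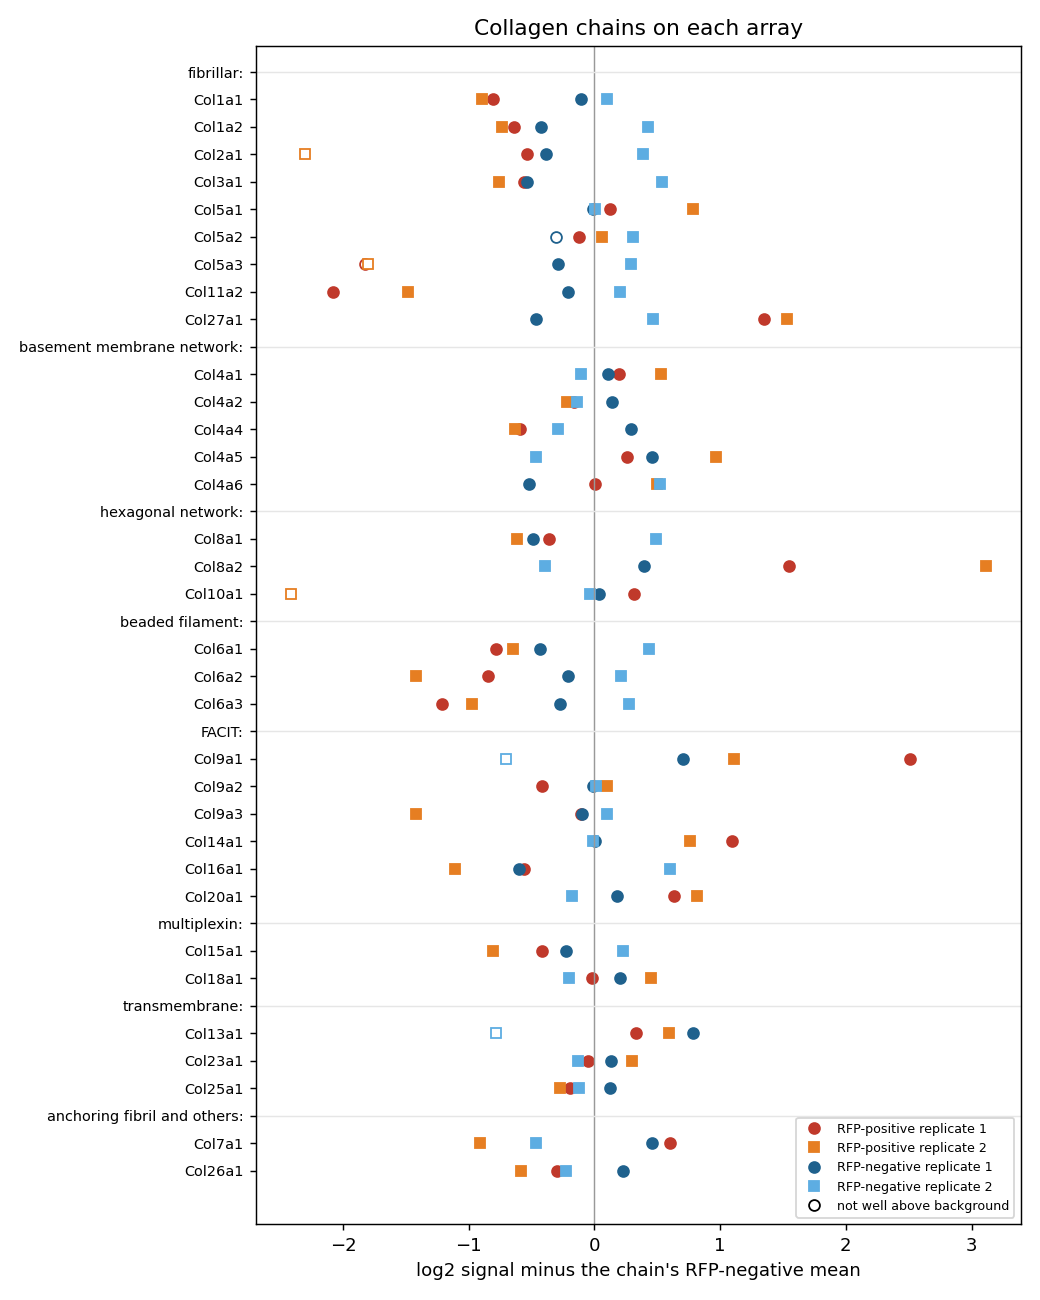
Log2 signal of each of the 33 chains tested on each array, minus the chain's RFP-negative mean, by structural class; red and orange points are RFP-positive arrays, dark and light blue points are RFP-negative arrays, and open points are not well above background. The 3 collagen VI chains and both collagen I chains have their RFP-positive arrays to the left, and Col8a2 and Col27a1 have theirs to the right.

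Among fibrillar chains, Col1a1 encodes the chain that is present in duplicate in the collagen I molecule. It was at -0.05 and -0.13 on the RFP-positive arrays and at 0.66 and 0.86 on the RFP-negative arrays. Both RFP-positive arrays were thus lower, with a difference of -0.85 (SE 0.23, 95% interval -1.46 to -0.24, limma adjusted p 0.724). Its partner Col1a2 was at 3.96 and 3.86 on the RFP-positive arrays and at 4.17 and 5.02 on the RFP-negative arrays. The groups did not overlap, and the difference was -0.68 (SE 0.35, limma adjusted p 0.750). It rested on RFP-negative replicate 2, being -0.26 without that array and -1.11 without RFP-negative replicate 1.

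Col3a1, the chain of the collagen III homotrimer found with collagen I in soft tissue, was at -0.55 and -0.76 on the RFP-positive arrays and at -0.53 and 0.54 on the RFP-negative arrays. RFP-negative replicate 2 alone stood well above the others, and the difference of -0.66 was -0.12 without it. Col11a2, a chain of the fibrils of cartilage, was at -2.97 and -2.36 on the RFP-positive arrays and at -1.09 and -0.68 on the RFP-negative arrays. The fractions were 1.27 apart at their nearest, and the difference was -1.78 (SE 0.32, 95% interval -2.63 to -0.94, limma adjusted p 0.581). It was between -2.08 and -1.48 with any 1 array left out, and -0.93 with normexp.

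Col2a1, the main fibrillar chain of cartilage, was at -2.52 and -4.28 on the RFP-positive arrays, the second of them not well above background, and at -2.36 and -1.59 on the RFP-negative arrays. RFP-positive replicate 2 was far below the other 3 arrays, and without it the difference of -1.42 was -0.54. Chain Col5a3, the least widespread of collagen V, was at -4.65 and -4.62 on the RFP-positive arrays, neither of them well above background, and at -3.12 and -2.53 on the RFP-negative arrays. Each RFP-positive array was also set at its dimmest probe well above background or at the Col5a3 signal, whichever was brighter. The RFP-negative mean was then 2.70-fold higher. That level is not a detection limit, since some brighter probes on RFP-positive replicate 1 were not well above background. The limma adjusted p of 0.581 rests on the unmeasured RFP-positive signals. With normexp the fitted difference was -0.48 in place of -1.81, so the 2.70-fold value holds for the processed signals only.

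The other chains of collagen V, which regulates fibril diameter, did not share that order. Col5a1 was at 2.41 and 3.07 on the RFP-positive arrays and at 2.28 and 2.29 on the RFP-negative arrays. Both RFP-positive arrays were higher, with a difference of 0.45 (SE 0.31) that was 0.12 without RFP-positive replicate 2. Col5a2 was at -3.90 and -3.71 on the RFP-positive arrays and at -4.08, not well above background, and -3.47 on the RFP-negative arrays. Its arrays overlapped, with a difference of -0.03 (95% interval -0.82 to 0.76).

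Col27a1, a fibrillar chain known from cartilage, was at -1.01 and -0.83 on the RFP-positive arrays and at -2.83 and -1.89 on the RFP-negative arrays. Both RFP-positive arrays were at least 0.88 above the RFP-negative ones. The difference was 1.44 (SE 0.38, 95% interval 0.45 to 2.43, limma adjusted p 0.704), and 0.97 without RFP-negative replicate 1 or 0.61 with normexp. Over the fibrillar class, 9 of 11 chains were tested. Of these, 2 were higher and 6 were lower without overlap, where 18.8% and 21.6% of all genes tested were, with a median of -0.68. Among the 6, Col5a3 and Col2a1 were tested only through the RFP-negative fraction, in which they are high, which favours separation. All 9 were higher on RFP-negative replicate 2 than on RFP-negative replicate 1, by a median of 0.61, where 47.4% of all genes tested were higher on replicate 2.

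All 3 chains of the classical collagen VI molecule lay lower in RFP-positive cells. Col6a2 was at 1.93 and 1.36 on the RFP-positive arrays and at 2.57 and 2.99 on the RFP-negative arrays. The difference was -1.13 (SE 0.32, 95% interval -1.96 to -0.30, limma adjusted p 0.724). Col6a3, the longest chain of the 3, was at -1.54 and -1.30 on the RFP-positive arrays and at -0.60 and -0.06 on the RFP-negative arrays. The fractions were 0.70 apart at their nearest, and the difference was -1.09 (SE 0.29, limma adjusted p 0.707). Col6a1 was at 1.03 and 1.16 on the RFP-positive arrays and at 1.38 and 2.24 on the RFP-negative arrays. Its difference was -0.72 (SE 0.36), and -0.28 without RFP-negative replicate 2. Each of the 3 was higher on RFP-negative replicate 2 than on replicate 1. Col6a1 and Col6a2 are neighbours on chromosome 10, and Col6a3 lies on chromosome 1.

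In collagen IV the main partner chains lay on opposite sides of 0. Col4a1 and Col4a2 form the widespread heterotrimer of basement membranes and start back to back on chromosome 8. Their RefSeq promoter windows run on opposite strands and share 78 bases. Col4a1 was at 3.63 and 3.97 on the RFP-positive arrays and at 3.54 and 3.33 on the RFP-negative arrays. It was higher on both RFP-positive arrays, with a difference of 0.36 (SE 0.26, 95% interval -0.30 to 1.03) that was 0.20 without RFP-positive replicate 2. Col4a2 was at 1.97 and 1.91 on the RFP-positive arrays and at 2.27 and 1.99 on the RFP-negative arrays, a difference of -0.19 (SE 0.24, 95% interval -0.82 to 0.43) that was -0.05 without RFP-negative replicate 1. Relative to its RFP-negative mean the log2 ratio of Col4a1 over Col4a2 was 0.36 and 0.75 on the RFP-positive arrays and -0.03 and 0.03 on the RFP-negative arrays. With 2 arrays against 2, an exact two-sided permutation test of such a ratio cannot go below p = 0.333, and no other test of the ratios was run.

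The minor chains of collagen IV were mixed. Col4a4, a chain of the mature glomerular basement membrane, was at -3.05 and -3.09 on the RFP-positive arrays and at -2.17 and -2.75 on the RFP-negative arrays, a difference of -0.61 that ran from -0.90 to -0.32 with RFP-negative replicate 2 or 1 left out. Col4a5 was at -1.88 and -1.18 on the RFP-positive arrays and at -1.68 and -2.60 on the RFP-negative arrays. Its neighbour on the X chromosome, Col4a6, was at -1.55 and -1.06 on the RFP-positive arrays and at -2.08 and -1.04 on the RFP-negative arrays. Both overlapped between the fractions, with differences of 0.61 and 0.25. That of Col4a5 was 0.15 without RFP-negative replicate 2 and 1.07 without RFP-negative replicate 1. A second Col4a6 probe differed by -0.23.

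**Figure D2:**
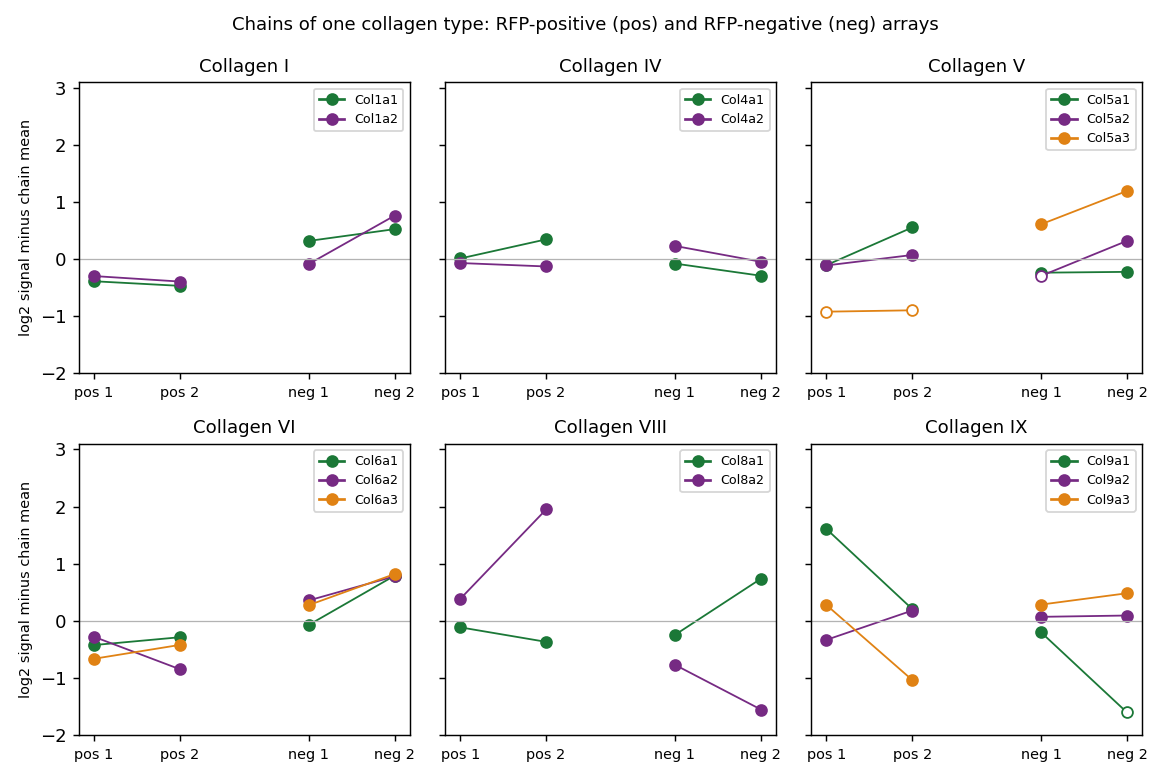
Log2 signal of chains of the same collagen type on the RFP-positive arrays (left) and the RFP-negative arrays (right), each minus the chain's mean over the 4 arrays; open points are not well above background and lines join the arrays of a fraction. The 3 chains of collagen VI lie together below their means in RFP-positive cells, while Col8a2 and Col9a1 part from the other chains of their types.

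Col8a2 had the highest difference of the 33 chains. It encodes a chain of the short-chain network collagen VIII, made by corneal and vascular endothelium. The probe was at -1.32 and 0.24 on the RFP-positive arrays and at -2.48 and -3.26 on the RFP-negative arrays. Every RFP-positive array was more than 2-fold above every RFP-negative array, which held on the higher side for 1 of 33 chains and 0.469% of all genes. The difference was 2.33 (SE 0.61, 95% interval 0.74 to 3.92, limma adjusted p 0.704). The RFP-positive arrays were themselves 1.57 apart, and the difference was 1.55 without replicate 2 and 1.21 with normexp. A second Col8a2 probe was well above background on no array.

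The other collagen VIII chain, Col8a1, was at 0.93 and 0.68 on the RFP-positive arrays and at 0.80 and 1.79 on the RFP-negative arrays, and overlapped, with a difference of -0.49. The log2 ratio of Col8a1 over Col8a2, relative to its RFP-negative mean, was -1.90 and -3.73 on the RFP-positive arrays and -0.88 and 0.88 on the RFP-negative arrays. Col10a1, the related chain of hypertrophic cartilage, was at -2.57 and -5.29 on the RFP-positive arrays, the second not well above background, and at -2.84 and -2.92 on the RFP-negative arrays. Its difference of -1.05 turned to 0.31 without RFP-positive replicate 2.

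Of the 9 FACIT genes 6 were tested. Among them 3 were higher and 1 was lower without overlap, where 18.8% and 21.6% of all genes tested were. Col9a1, 1 of the 3, was tested only through the RFP-positive fraction, in which it is high. Col14a1, which binds the surface of collagen I fibrils, was at 0.82 and 0.48 on the RFP-positive arrays and at -0.26 and -0.28 on the RFP-negative arrays. Both RFP-positive arrays were higher, with a difference of 0.93 (SE 0.25, 95% interval 0.28 to 1.57, limma adjusted p 0.704). The second Col14a1 probe, also well above background on all 4 arrays, ran the other way, at -2.86 and -3.97 on the RFP-positive arrays and at -2.68 and -3.02 on the RFP-negative arrays. The 2 probes therefore disagree on the sign.

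Col9a1, a chain of the collagen IX that coats cartilage fibrils, was at -1.06 and -2.46 on the RFP-positive arrays and at -2.87 and -4.28 on the RFP-negative arrays, the last not well above background. Its difference of 1.81 (SE 0.68, limma adjusted p 0.745) went with gaps of 1.40 within each fraction and was 0.60 with normexp. The arrays of Col9a2 overlapped between the fractions. Col9a3 was at -1.33 and -2.65 on the RFP-positive arrays and at -1.33 and -1.13 on the RFP-negative arrays. Its difference of -0.76 was -0.11 without RFP-positive replicate 2. The 3 chains of collagen IX thus had differences of 1.81, -0.16 and -0.76.

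Col20a1, a FACIT chain, was at -2.21 and -2.03 on the RFP-positive arrays and at -2.66 and -3.03 on the RFP-negative arrays, a difference of 0.73 (SE 0.26) that was 0.16 with normexp, where its unadjusted p was 0.432 in limma's test. A second Col20a1 probe, well above background on RFP-negative replicate 1 only, differed by -0.22. Col16a1 was at -1.90 and -2.45 on the RFP-positive arrays and at -1.94 and -0.74 on the RFP-negative arrays, overlapped, and had a difference of -0.84. That value was -0.23 without RFP-negative replicate 2.

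The multiplexins carry antiangiogenic fragments at their ends and lie in vascular basement membranes. Col18a1, the source of endostatin, was at 1.63 and 2.11 on the RFP-positive arrays and at 1.85 and 1.45 on the RFP-negative arrays. It overlapped, with a difference of 0.22 (95% interval -0.56 to 0.99). Its second probe gave 0.26. Col15a1 was at -2.32 and -2.71 on the RFP-positive arrays and at -2.13 and -1.67 on the RFP-negative arrays, a difference of -0.61. A second Col15a1 probe was also lower without overlap, by -1.49.

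Among transmembrane chains, Col25a1, known from neurons, was at -2.69 and -2.77 on the RFP-positive arrays and at -2.37 and -2.62 on the RFP-negative arrays. Its fractions were 0.07 apart. Col13a1 and Col23a1 overlapped, with differences of 0.46 and 0.12. Outside the transmembrane class, Col26a1 was at -0.41 and -0.70 on the RFP-positive arrays and at 0.11 and -0.34 on the RFP-negative arrays. Its fractions were also 0.07 apart. Col7a1, the anchoring fibril chain of epithelia, was at 0.43 and -1.07 on the RFP-positive arrays and at 0.30 and -0.63 on the RFP-negative arrays. The arrays of each Col7a1 fraction were farther apart than the fractions, which differed by -0.15.

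**Figure D3:**
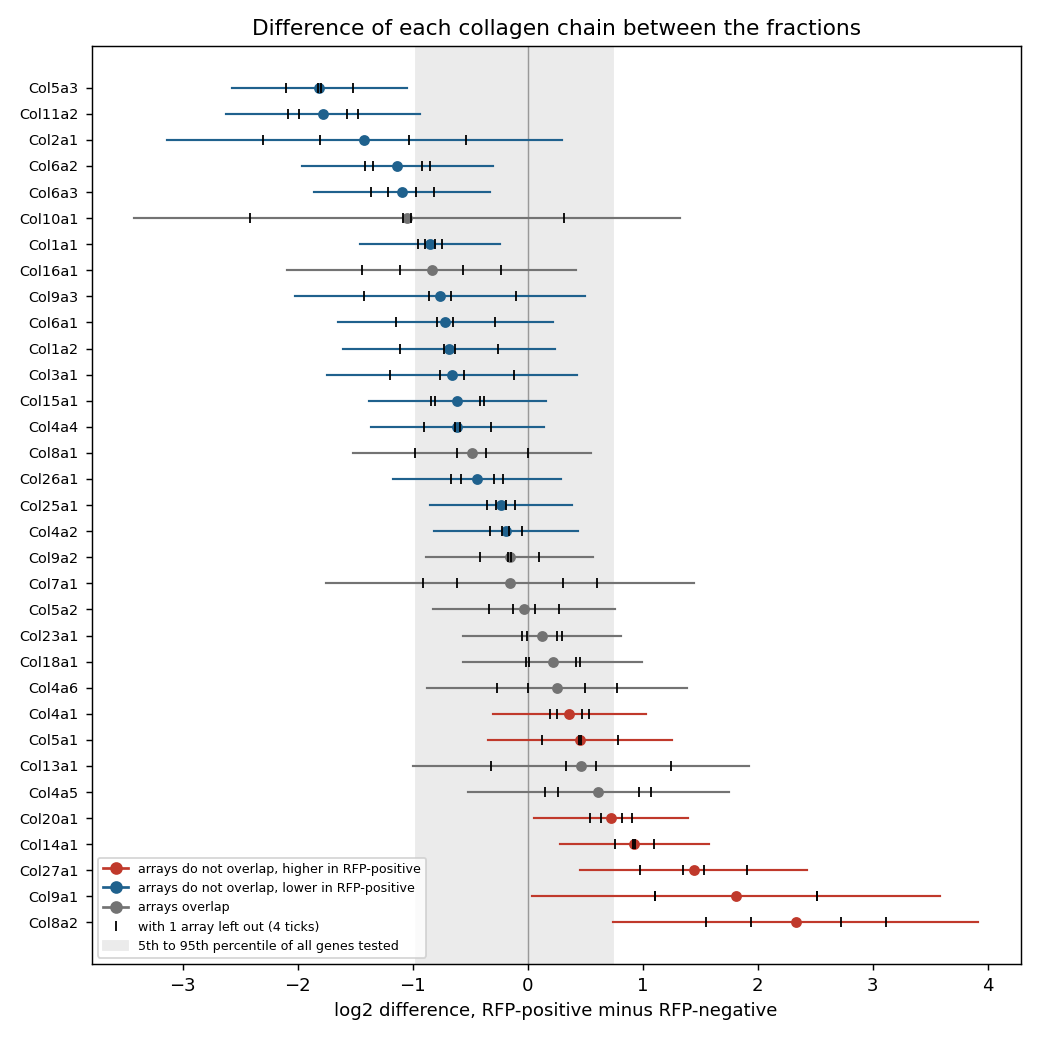
Log2 difference of each chain, RFP-positive minus RFP-negative, with its 95% limma interval; black ticks give the difference with each array left out in turn, and the grey band holds the 5th to 95th percentile of all genes tested, -0.97 to 0.74. Col5a3 and Col11a2 lie lowest and Col8a2 highest, each with all its ticks on one side of 0, while the ticks of Col7a1 and Col10a1 fall on both sides. The RFP-positive signals of Col5a3 were not well above background.

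With 1 array or another left out, the difference moved by over 1.5 times or changed sign for 25 of the 33 chains. The other 8 were Col1a1, Col5a3, Col11a2, Col27a1, Col6a2, Col6a3, Col14a1 and Col20a1. For Col5a3 this rests on RFP-positive signals that were not well above background and gives no support. The share of all genes that moved in this way was not counted. Across the chains, 14 had more than 1 probe. Of the 6 with at least 2 probes well above background on all 4 arrays, the probes had the same sign in 4 and opposite signs in 2, Col14a1 and Col4a6. Read array by array against the RFP-negative mean, the median of the 33 chains was -0.16 on RFP-positive replicate 1 and -0.58 on RFP-positive replicate 2, beside 0.01 and -0.10 over all genes.

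The genes that build and bind collagen were read from lists of modifying enzymes, processing enzymes, fibril-associated proteins, receptors and collagenases. In these lists 0 genes passed an adjusted p of 0.05 in limma's test, and 7 of 56 tested had an unadjusted p under 0.05, beside 6.49% of all genes. Adamts2 and Loxl3, among the 7, entered the test only through the fraction in which they are high, so their p-values give no support. The counts without overlap that follow stand beside 18.8% of all genes higher and 21.6% lower. All 22 genes of the list of chaperones and modifying enzymes were tested, with 2 higher and 7 lower without overlap and a median of -0.17. Serpinh1, the collagen chaperone HSP47, was at 4.88 and 4.91 on the RFP-positive arrays and at 4.45 and 4.32 on the RFP-negative arrays, a difference of 0.51. P3h2 and P3h3, prolyl 3-hydroxylases, had differences of -0.75 and -1.01, and Fkbp10, a prolyl isomerase of the endoplasmic reticulum, had one of -0.46.

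Of the 15 genes for propeptide processing and cross-linking, 13 were tested, with 5 higher and 3 lower without overlap. Adamts2, which cuts the amino-terminal propeptide of fibrillar procollagens, was at -2.71 and -1.36 on the RFP-positive arrays and at -4.27 and -3.93 on the RFP-negative arrays, 1 of these not well above background. Its difference was 2.07 (SE 0.50, limma adjusted p 0.662), tested through the RFP-positive fraction alone. Bmp1, which cuts the carboxy-terminal propeptide, differed by 0.55 and Tgm2, a transglutaminase, by 0.73. Loxl3, of the lysyl oxidase family, differed by -1.57 and was well above background on 1 RFP-positive array.

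Of 13 fibril-associated proteins, 8 were tested, and 0 were higher and 4 lower without overlap, with a median of -0.48. Ogn, Aebp1 and Bgn differed by -0.96, -1.17 and -0.76, and Lum, which overlapped, by -0.73. Dcn, which encodes the collagen-binding proteoglycan decorin, was well above background on no array. Of 12 receptors, 8 were tested, with 1 higher and 4 lower without overlap. The receptor tyrosine kinases Ddr1 and Ddr2 differed by -0.58 and -1.01, Lair1 by -0.21, and Adgrg1, an adhesion receptor that binds collagen III, by 0.93. Of 11 collagenases and gelatinases, 5 were tested, with 1 higher and 3 lower without overlap. Mmp9 differed by 1.16, Mmp14 by -0.77, Mmp2 by -0.18 and Fap by -3.20, the last with RFP-positive replicate 2 not well above background.

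Markers of other cell types were read on the same arrays, and 0 of them passed an adjusted p of 0.05 in limma's test. For 27 of 88 list entries the unadjusted p was under 0.05, beside 6.49% of all genes. Myb, 1 of these entries, was tested only through the fraction in which it is high, so its p-value gives no support. The summed linear signal of 17 stromal and fibroblast markers other than collagens, in multiples of the array's 75th percentile, was 321 and 292 on the RFP-positive arrays and 330 and 371 on the RFP-negative arrays. Of the 17, 1 was higher and 9 were lower without overlap, among them Thy1 at -0.89, Vcam1 at -1.50, Timp1 at -1.09 and S100a4 at -1.21. Postn, Dcn and Nt5e of that list were well above background on no array. Among the 17, Lum, Fap, Mmp2, Fn1, Loxl1, Sparc and Lox are also in the lists of genes that build and bind collagen. The stromal counts are therefore not separate from those lists, and Sparc is in the endoderm list too. Markers of mural cells and smooth muscle summed to 349 and 342 on the RFP-positive arrays and to 398 and 404 on the RFP-negative arrays, with 6 of 10 lower without overlap. The contractile genes Acta2, Actg2, Myl9 and Cnn1 differed by -0.99, -0.84, -0.79 and -0.62, and Cspg4 was well above background on no array.

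Adipocyte markers summed to 40.1 and 35.9 on the RFP-positive arrays and to 76.8 and 72.6 on the RFP-negative arrays, with 11 of 13 lower without overlap and a median of -1.58. Their genes of smallest p were Cidec, Cfd, Pparg and Fabp4, at -2.54, -1.81, -1.41 and -1.58, and Lep was well above background on no array. Endothelial markers summed to 132 and 149 on the RFP-positive arrays and to 119 and 115 on the RFP-negative arrays, with 9 of 18 higher and 0 lower without overlap. Flt1, Sox7 and Vwf differed by 0.84, 0.83 and 0.56, and Eng, which overlapped, by -0.98. The part of these cell types in the differences of the collagen chains was not tested.

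Cartilage markers were split, with 6 of 9 tested, 1 higher and 2 lower without overlap, and sums of 16.0 and 20.6 on the RFP-positive arrays and 12.7 and 12.9 on the RFP-negative arrays. Comp was at -3.07 and -3.62 on the RFP-positive arrays and at -1.76 and -1.36 on the RFP-negative arrays. Hapln1 was at 3.48 and 3.95 on the RFP-positive arrays and at 2.76 and 3.03 on the RFP-negative arrays. The signal of Hapln1 alone made up most of the cartilage sum on every array, so the sums do not describe the list as a whole. Acan, with 1 RFP-positive array not well above background, differed by -1.26 and Matn1 by 0.70, and Matn3 and Cnmd were well above background on no array. Endoderm markers summed to 82.9 and 87.0 on the RFP-positive arrays and to 89.2 and 105.9 on the RFP-negative arrays, with 1 of 13 higher and 5 lower without overlap. Rbp4, Spink1, Epcam and Cldn6 differed by -2.01, -1.97, -1.55 and -1.52, and Afp and Apoa1 were well above background on no array. Haematopoietic markers summed to 73.4 and 57.8 on the RFP-positive arrays and to 61.6 and 63.6 on the RFP-negative arrays, with 5 of 11 higher and 1 lower without overlap. Runx1, Gata1, Myb and Spi1 differed by 1.54, 1.44, 1.29 and -1.11, with 1 RFP-negative array of Myb not well above background. Gfi1b was well above background on no array.

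**Figure D4:**
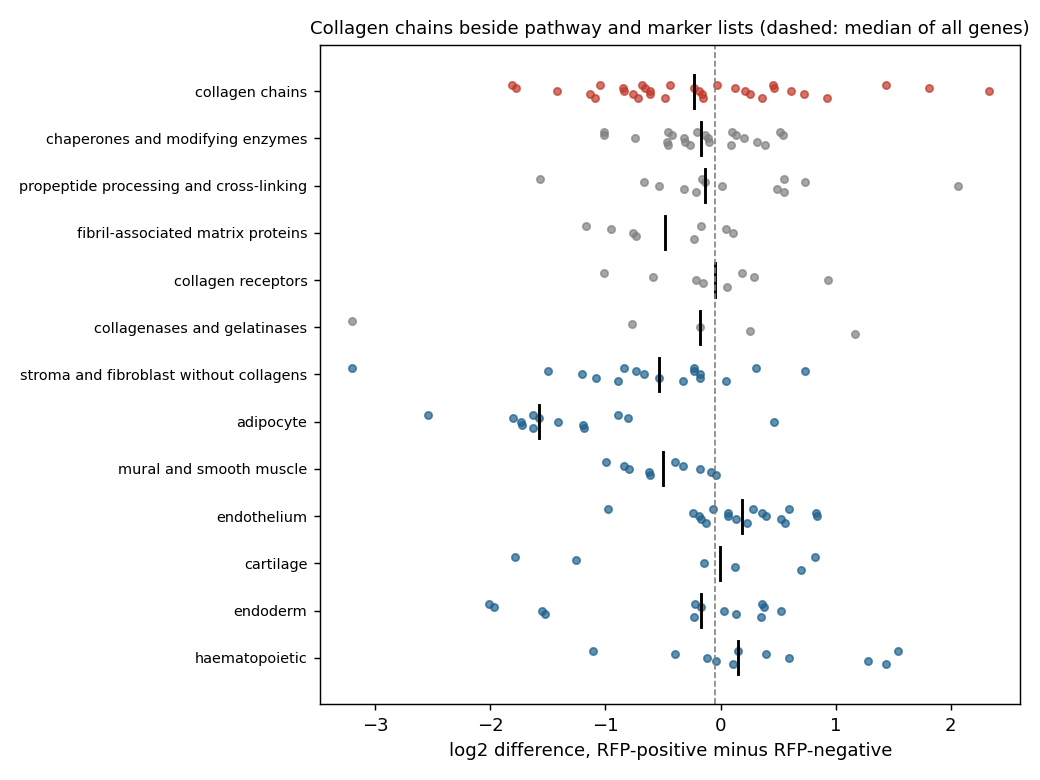
Log2 difference, RFP-positive minus RFP-negative, of each gene tested in the collagen chains (red), the lists of genes that build and bind collagen (grey) and the marker lists (blue); black bars are medians and the dashed line is the median of all genes tested, -0.05. The collagen chains spread from -1.81 to 2.33 around a median of -0.23, and the adipocyte list has the lowest median, -1.58.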

How the data were processed

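Total RNA of 2 RFP-positive and 2 RFP-negative samples was measured on 4 one-colour (Cy3) Agilent arrays. The intensity values were deposited as the scanner's processed signals, which per the file headers Agilent Feature Extraction 10.10.1.1 wrote. All 4 arrays shared 1 slide and 1 scan, which leaves no batch of slides or scans to test. The labels do not say whether cultures were separate, so a batch of cultures could not be tested. A deposited value table holds linear intensity as well: its columns are the processed signals times 1 constant per array (5.82 and 5.39 for RFP-positive, 6.45 and 6.02 for RFP-negative replicates 1 and 2), with medians of 133.9, 142.3, 136.2 and 143.9. The sources used here do not say how these constants were set.

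Each array had 62976 spots, from which 3671 controls and 115 to 153 marked as outliers were removed. Log2 signals were centred on the array's 75th percentile (206.4 and 249.8 for RFP-positive, 183.2 and 208.1 for RFP-negative replicates) and spots of a probe were averaged. Of 55681 probes, 27235 had 1 symbol, 0 several and 28446 none, by RefSeq accession in a GRCm38 gene table. A gene's probe of highest mean was used. RFP-positive minus RFP-negative was fitted in limma 3.58.1 under R 4.3.3 (lmFit, eBayes, two-sided, no block; 2 residual and 2.77 prior degrees of freedom), with Benjamini-Hochberg adjustment over 13433 genes. The steps were tested on simulated data. Alternatives were median scaling, quantile normalization, normexp (offset 50, on the spots' median signals), the deposited value table, other filters, averaging all probes of a gene, a trended eBayes (also robust), the replicate block and each array left out; counts of chains moved over 1.5 times were added after seeing the data. Chains were named by class, with values on every array for those without overlap and for collagens I, III, IV, V, VI and XVIII; up to 4 genes of smallest p were named per list. Some other chains are given array values too, chosen after their values were seen. The members and lists were chosen with earlier results of these data known. Python 3.11.15, pandas 2.3.3 and matplotlib 3.10.9 were used.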

Additional observations from a re-analysis of the deposited data

How the results depend on the processing

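Of the 14 alternative settings, those that left out no array gave 0 collagen chains past the limma threshold, as did an adjusted p of 0.1. In these settings 8 to 10 chains had an unadjusted p under 0.05. The share of all genes was 6.49% in the main fit and 5.89% over genes well above background on all 4 arrays. It was not counted in the other settings. The replicate block also gave 0 chains, with a smallest adjusted p of 0.590 and 9 chains at an unadjusted p under 0.05; the labels do not say whether the numbers pair the samples, and deviations of same-numbered arrays correlated by 0.09 across genes. Under other scalings, filters and starting values, 12 to 17 chains were lower and 5 to 9 higher without overlap, of 33 except for 27 on all 4 arrays and 43 with no filter. Of all genes 16.6% (median scaling) to 23.0% (normexp) were lower and 15.5% (no filter) to 24.4% (median scaling) higher. Requiring a 2-fold distance between every pair of arrays left 2 lower (Col11a2 and, on signals not well above background, Col5a3) and 1 higher (Col8a2). With normexp 16 chains had differences over 1.5 times smaller; the median size was 0.41, in place of 0.66, and over all genes 0.20, in place of 0.27. Its added offset shrinks log differences of dim probes by construction. With each array left out, 16 to 19 chains were lower and 9 to 11 higher; separation is easier with fewer arrays, and the shares of all genes ran from 32.0% to 46.9% and from 30.3% to 34.4%. The median difference ran from -0.58, without RFP-positive replicate 1, to -0.16, without RFP-positive replicate 2; in the settings that left out no array it lay between -0.20 and -0.15 wherever it differed from -0.23.

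Of 456 single differences under the alternatives 17 turned their sign, in 10 of 33 chains. The 456 include the other filters, the eBayes options and the replicate block, which leave a chain's difference unchanged. Entries of those settings could not turn, so the 456 overstate how many could. The share over all genes was not counted. With each array left out in turn, Col10a1 ran from -2.41 to 0.31, Col7a1 from -0.906 to 0.60 and Col18a1 from -0.019 to 0.452, each turned without RFP-positive replicate 2. Col9a2 ran from -0.415 to 0.10, turned without RFP-positive replicate 1, and Col7a1 was at 0.31 without RFP-negative replicate 1. Col13a1 ran from -0.32 to 1.24 and Col8a1 from -0.979 to 0.0050, both turned without RFP-negative replicate 2. Col4a6 ran from -0.27, without RFP-negative replicate 1, to 0.773. Col23a1 ran from -0.053 to 0.302, with -0.0087 without RFP-negative replicate 2 and the lowest value without RFP-positive replicate 2. Col5a2 ran from -0.339 to 0.27, with 0.059 without RFP-positive replicate 1 and the highest value without RFP-negative replicate 2. Col5a2 was at 0.051 with median scaling, 0.10 with quantile normalization and 0.031 in the deposited value table, Col13a1 at -0.0086 with normexp, and Col25a1 at 0.15 over the mean of its probes. The cause was not tested. The other 23 chains kept their sign in every setting run on them, which left out the filter for all 4 arrays for Col2a1, Col5a3 and Col9a1. Signals not well above background leave both RFP-positive arrays of Col5a3 unmeasured, and 1 array each of Col2a1, Col10a1, Col9a1, Col13a1 and Col5a2.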
